A study of Mus musculus with 4 samples.

Results

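Vip, Adcyap1, Vipr1, Vipr2 and Adcyap1r1 are the genes of 2 related neuropeptides and their 3 receptors, and they were taken by symbol from the deposited count tables. All 5 were found among 24100 genes, and all 5 passed the filter on low counts that left 14636 genes for testing. The libraries were 3 immunopurified (IP) libraries and 1 Input library of prefrontal cortex. All came from adult males of the Crh-IRES-Cre line, untreated controls in every case, with 5 males per library. The line makes Cre recombinase where the gene of corticotropin-releasing hormone, Crh, is active. The IP libraries hold RNA bound to EGFP-tagged polysomes that were caught on beads with antibodies against EGFP (translating ribosome affinity purification, TRAP), and the labels name the other fraction Input and no more. How the tag was brought into the cells, whether the Input belongs to an IP, and whether separate animals went into the 3 IP libraries is not stated in the labels, so any p-value measures no more than how far these libraries spread, which may be technical.

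Vasoactive intestinal peptide (VIP) and pituitary adenylate cyclase-activating polypeptide (PACAP, from Adcyap1) belong to the secretin family of peptides. Their receptors couple to Gs, raise cyclic AMP and through it act on protein kinase A and the transcription factor CREB. VPAC1 (Vipr1) and VPAC2 (Vipr2) bind both peptides about equally well, whereas PAC1 (Adcyap1r1) prefers PACAP. In the cortex VIP marks a class of GABAergic interneurons that mainly inhibit other interneurons, and part of that class also makes CRH. PACAP is known in the cortex mostly from excitatory neurons.

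In brief, Vip was the single gene of the 5 that passed the test, about 82-fold higher in IP than in Input, while Adcyap1 was below the Input in each IP library without passing. Adcyap1r1 lay above the Input in all 3, also without passing. Vipr1 ranged from 0.236 to 1.04 times the Input level. Vipr2 had 778 counts in IP 1 and 0 in IP 2 and IP 3.

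Total counts were 23548375, 10031072 and 12150980 in IP 1, 2 and 3 and 14474529 in the Input. Levels are given as CPM, counts scaled to library size after TMM correction (trimmed mean of M-values), on which a single count was worth 0.0436, 0.107 and 0.0862 CPM in the IP libraries and 0.06 CPM in the Input. Crh itself was at 501, 174 and 193 CPM in IP 1, 2 and 3, against 1.32 CPM in the Input (adjusted p = 9.66e-05 by edgeR), a call that limma-voom did not make (adjusted p = 0.426, log2 fold 7.73 against 7.77). For the cell type lists that follow, 19.7% of all genes tested lay above the Input in every IP library and 24.1% below it. Of 6 endothelial markers all lay above the Input in every IP library, with a summed level of 110 to 437 CPM in IP and 29.2 CPM in the Input, and of 8 astrocyte markers 7 lay below it in every IP library, at 1635 to 2826 CPM in IP and 2648 CPM in the Input. Among 10 excitatory neuron markers 8 were below it in every IP library, at 3479 to 6429 CPM in IP and 5576 CPM in the Input. Of 6 microglial markers 5, and of 6 oligodendrocyte markers 3, lay below the Input in every IP library, with summed levels of 21.2 to 34.7 and 318 to 499 CPM in IP and 73.9 and 682 CPM in the Input. The 4 mural cell markers summed to 126 to 347 CPM in IP and 65.6 CPM in the Input, and the 3 markers of oligodendrocyte precursors to 44 to 78 CPM in IP and 32.2 CPM in the Input. Of the 4 mural markers 2 lay above the Input in all 3 IP libraries, and 0 lay below it in all 3. Of the 3 precursor markers 2 lay above it and 1 below it in every IP library. The latter was Gpr17, at 1.05, 4.7 and 5 CPM in IP 1, 2 and 3 against 15 CPM in the Input. No marker on these lists was at 0 in all IP libraries, and their part in the results below was not tested.

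The sequence before an annotated start of both peptide genes is shown because it is the one place where the members could be compared by sequence here. The windows are the 250 bases upstream of an annotated start (GRCm38.p6), each on the plus strand, at chr10:5638968-5639217 for Vip and chr17:93198767-93199016 for Adcyap1. Both end just before the GENCODE gene start. In RefSeq the gene spans begin earlier, at 5639193 for Vip, 93198245 for Adcyap1, 116077420 for Vipr2 and 55451501 for Adcyap1r1. A window can therefore lie partly or wholly within the RefSeq gene, and distances hold only for the starts used. The capitals mark the longest run of letters that both windows share.
Vip: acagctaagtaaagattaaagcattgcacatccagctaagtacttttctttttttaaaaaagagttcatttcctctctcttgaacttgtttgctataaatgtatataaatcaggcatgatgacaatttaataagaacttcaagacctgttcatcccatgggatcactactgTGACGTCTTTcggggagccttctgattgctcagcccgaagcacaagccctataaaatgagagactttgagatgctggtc
Adcyap1: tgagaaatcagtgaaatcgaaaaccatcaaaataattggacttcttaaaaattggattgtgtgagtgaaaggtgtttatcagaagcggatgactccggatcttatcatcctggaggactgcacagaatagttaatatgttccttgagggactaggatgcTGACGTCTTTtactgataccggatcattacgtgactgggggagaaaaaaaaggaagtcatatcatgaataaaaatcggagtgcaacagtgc
The shared run, TGACGTCTTT, begins 79 bases before the start in Vip and 91 bases before the start that follows the Adcyap1 window shown. Adcyap1 has a second annotated start, with its window at chr17:93198918-93199167, and from there the run lies 242 bases away. The run was chosen after these windows were compared. On either strand it occurs in 20 of 32851 windows of the same length (0.0609%). These 20 include the Vip window and both Adcyap1 windows, which overlap and hold the same site, so the share is not independent of them. The run contains TGACG, the core of the cyclic AMP response element to which CREB binds, which 17.8% of all windows hold on either strand. The full palindrome TGACGTCA was in none of the 6 windows of the 5 genes and in 1.55% of all windows. The letters TATAAA begin 157, 147 and 30 bases before the start of Vip and 58 bases before the second start of Adcyap1, they are absent from the Adcyap1 window shown, and 12.4% of all windows hold those letters on either strand. Of the receptor genes, Vipr1 holds the core on the minus strand, 13 bases before its start, and the Vipr2 and Adcyap1r1 windows hold none. Receptor windows were rich in G and C, at 72.8% for Vipr1, 65.2% for Vipr2 and 65.6% for Adcyap1r1, whereas Vip had 38.4% and Adcyap1 39.6%, and the median over all windows was 52.4%. A match of letters is a description and does not show that a factor binds there.

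Vip (Entrez 22353) encodes the precursor of VIP and is protein coding, on chromosome 10 from 5639218 to 5647617 (GENCODE M21, GRCm38). It had 87229, 21067 and 26139 counts in IP 1, 2 and 3, against 563 counts in the Input. Scaled, these were 3801, 2252 and 2253 CPM in the IP libraries, against 33.8 CPM in the Input. Every IP library was thus far above the Input, and IP 2 and IP 3 were nearly the same while IP 1 was higher. Among all 24100 genes Vip was at rank 7, 22 and 26 by CPM in IP 1, 2 and 3 and at rank 4849 in the Input. It took 0.37%, 0.21% and 0.215% of all counts of the IP libraries and 0.00389% of those of the Input.

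The mean of Vip was 2769 ± 894 CPM in IP (SD, n = 3) against 33.8 CPM in the Input, a log2 fold of 6.36 ± 0.51 (SE). Its adjusted p was 1.95e-06 by edgeR's quasi-likelihood test with Benjamini-Hochberg adjustment, the smallest p of the 14636 genes. Of these genes 67 passed the threshold of 0.05, which is 0.458%, with 60 higher in IP (0.41%) and 7 lower (0.0478%). With upper-quartile factors these counts were 51 and 15, and with library totals alone 50 and 15. Vip was the single member of the 5 among them. The ratio of each IP library to the Input was 113 in IP 1 (exact 95% counting interval 104 to 123), 66.7 in IP 2 (61.4 to 72.7) and 66.8 in IP 3 (61.4 to 72.7). The interval of IP 1 did not meet those of the other IP libraries, and such intervals cover counting error only. DESeq2, which called 1.96% of genes with an adjusted p, and limma-voom, which called 0.348%, also called Vip (adjusted p = 7.96e-39 and 0.00269), and without IP 1 its log2 fold was 6.04.

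**Figure D1:**
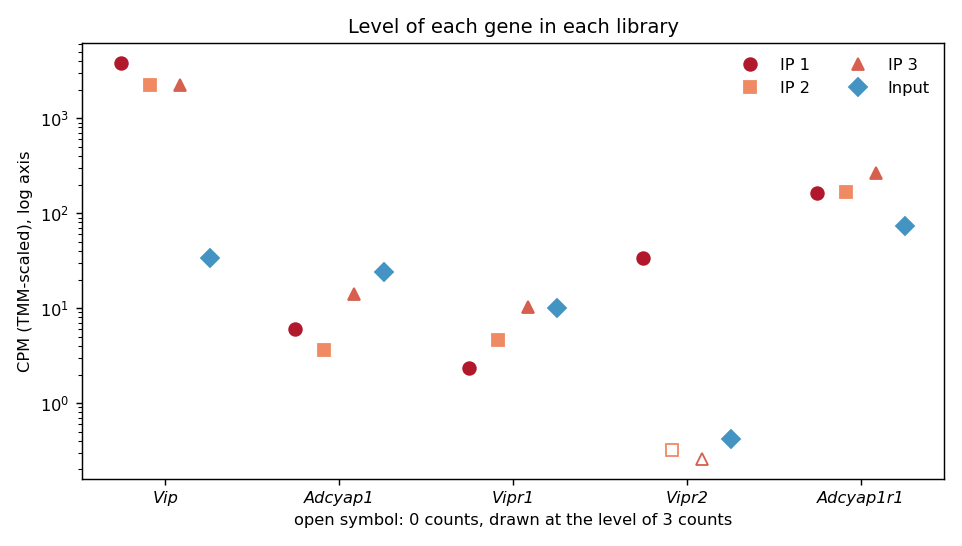
Level of each gene in the 3 IP libraries and the Input, in TMM-scaled CPM on a log axis, with 1 point per library and open symbols for 0 counts drawn at the level of 3 counts. Vip lies at 2252 to 3801 CPM in IP and 33.8 CPM in the Input, and Vipr2 has a level above 1 CPM in IP 1 alone.

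Adcyap1 (Entrez 11516), the gene of the PACAP precursor, lies on chromosome 17 from 93199017 to 93206537 and is protein coding. It had 138, 34 and 164 counts in IP 1, 2 and 3, against 406 counts in the Input. The levels were 6.01, 3.63 and 14.1 CPM in the IP libraries, against 24.3 CPM in the Input. Every IP library was below the Input, with IP 2 the lowest and IP 3 the nearest to it. Of all genes tested 24.1% likewise had their 3 IP levels under the Input. The mean was 7.93 ± 5.51 CPM in IP (SD, n = 3) against 24.3 CPM in the Input, and the log2 fold of -1.62 ± 1.15 (SE) did not pass, at an adjusted p of 1 by edgeR and an unadjusted p of 0.176.

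By counting alone each IP library was below the Input in Adcyap1, at a ratio of 0.247 in IP 1 (exact 95% interval 0.202 to 0.3), 0.149 in IP 2 (0.102 to 0.212) and 0.581 in IP 3 (0.481 to 0.698). The spread between the IP libraries was wider than these intervals, and the 95% interval of the fitted log2 fold ran from -4.03 to 0.79. A fall, no difference and a small rise therefore all lay within it. Of the 10 excitatory neuron markers given above 2 were called lower in IP by edgeR, against 0.0478% of all genes tested, and their part in this result was not tested. They were Nrn1, which encodes neuritin, a protein that promotes neurite growth, and Nrgn, which encodes the calmodulin-binding neurogranin. Camk2a, the kinase gene with the highest CPM on that list, was at 2589, 4974 and 4159 CPM in IP 1, 2 and 3 against 2901 CPM in the Input (log2 fold 0.43 ± 0.34, SE, adjusted p = 1 by edgeR). In bulk samples fewer cells of a type and less RNA per cell cannot be told apart.

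The ratio of the 2 peptide genes to each other also differed between the fractions. Per kilobase of exon, Vip exceeded Adcyap1 by 702, 688 and 177 times in IP 1, 2 and 3 and by 1.54 times in the Input. All 3 IP ratios were above that of the Input, but a single Input leaves this difference without a test of its own. The lower ratio of IP 3 goes with its higher level of Adcyap1, since Vip was nearly the same in IP 2 and IP 3. Exon lengths are the merged exons of GENCODE, 3.4 kb for Vip and 3.78 kb for Adcyap1, since the sources used here do not name the annotation used for counting.

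Vipr1 (Entrez 22354, chromosome 9, 121642716 to 121672954, protein coding) encodes VPAC1. It had 54, 43 and 120 counts in IP 1, 2 and 3, against 166 counts in the Input. Its levels were 2.35, 4.6 and 10.3 CPM in the IP libraries, against 9.95 CPM in the Input. IP 1 and IP 2 were below the Input and IP 3 was at it, so the groups overlapped. The mean was 5.76 ± 4.12 CPM in IP (SD, n = 3) against 9.95 CPM in the Input, with a log2 fold of -0.79 ± 1.48 (SE, adjusted p = 1 by edgeR) and a 95% interval from -3.89 to 2.31. The ratio to the Input was 0.236 in IP 1 (exact 95% interval 0.171 to 0.323), 0.462 in IP 2 (0.322 to 0.649) and 1.04 in IP 3 (0.815 to 1.32). Without IP 3 the log2 fold was -1.52, and it did not pass either (adjusted p = 1).

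Vipr2 (Entrez 22355, chromosome 12, 116077726 to 116146261, protein coding) encodes VPAC2, the receptor known for keeping the clock neurons of the suprachiasmatic nucleus in step. It had 778 counts in IP 1 and 0 counts in IP 2 and in IP 3, against 7 counts in the Input. IP 1 was at 33.9 CPM (exact Poisson 95% interval 31.6 to 36.4), and the Input at 0.42 CPM (0.169 to 0.865). With 0 counts, IP 2 may hold up to 0.321 CPM and IP 3 up to 0.259 CPM, the levels of 3 counts, which are the one-sided 95% limits. Against these the level of IP 1 was at least 106-fold higher than that of IP 2 and at least 131-fold higher than that of IP 3, so a single library sets the whole IP mean. At the level of IP 1, 317 counts would have been found in IP 2 and 393 in IP 3 by depth alone. These limits, folds and expected counts cover counting error only, not the spread between libraries. Genes with a count numbered 14691, 13956 and 14172 in IP 1, 2 and 3 and 17141 in the Input. At the level of the Input, 3.93 counts would have been found in IP 2 and 4.87 in IP 3. The ratios to the Input were at most 1.24 in IP 2 and 0.998 in IP 3 by the exact 95% interval. By counting, IP 2 could thus be at the level of the Input, and the bound of IP 3 was only just under it.

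The log2 fold of Vipr2 fitted by edgeR was 4.73 ± 3 (SE, adjusted p = 1) and that of limma-voom 0.54 (adjusted p = 0.999), and both rest on IP 1. The gene passed the filter on low counts through IP 1 alone, and without IP 1 it was not tested. Genes found in a single IP library at this level were few. In IP 1, 5 genes reached 10 CPM with 0 counts in both other IP libraries, out of 8551 genes at 10 CPM or more, and Vipr2 was the highest of these 5. The same held for 11 of 8445 genes in IP 2 and 6 of 8536 in IP 3. Of these 22 genes 5 were at or above the level that Vipr2 had in IP 1. No exon base of Vipr2 is shared with another annotated gene, and this holds for the other 4 members. Which animals, cells or steps gave IP 1 these counts was not tested.

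Adcyap1r1 (Entrez 11517, chromosome 6, 55451978 to 55501451, protein coding) encodes PAC1, the receptor that prefers PACAP. It had 3722, 1576 and 3048 counts in IP 1, 2 and 3, against 1226 counts in the Input. The levels were 162, 168 and 263 CPM in the IP libraries, against 73.5 CPM in the Input. All IP libraries were above the Input, a pattern that 19.7% of all genes tested also had, and IP 3 was the highest. The mean was 198 ± 56.3 CPM in IP (SD, n = 3) against 73.5 CPM in the Input, a log2 fold of 1.43 ± 0.52 (SE) with a 95% interval from 0.33 to 2.52, before any adjustment for the number of genes. The adjusted p was 0.686 by edgeR, the unadjusted p 0.0132, at rank 281 of the 14636 genes, and 4.43% of them had an unadjusted p under 0.05.

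By counting alone the ratio of Adcyap1r1 was 2.21 in IP 1 (exact 95% interval 2.07 to 2.36), 2.29 in IP 2 (2.13 to 2.47) and 3.57 in IP 3 (3.34 to 3.82). DESeq2 (adjusted p = 0.174) and limma-voom (adjusted p = 0.683) did not call it, and its log2 fold ran from 1.16 to 1.53 over the alternatives. PAC1 is known from neurons and from astrocytes. Of the 8 astrocyte markers 0 lay above the Input in all IP libraries and 7 below it, against 19.7% and 24.1% of all genes tested. The part of astrocytes in the level of Adcyap1r1 was not tested. Slc1a2, the glutamate transporter of astrocytes, was at 1379, 2456 and 1545 CPM in the IP libraries against 2122 CPM in the Input, and Aldoc, an enzyme of glycolysis, at 148, 208 and 184 CPM against 303 CPM. The counts do not separate the splice forms of this receptor.

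**Figure D2:**
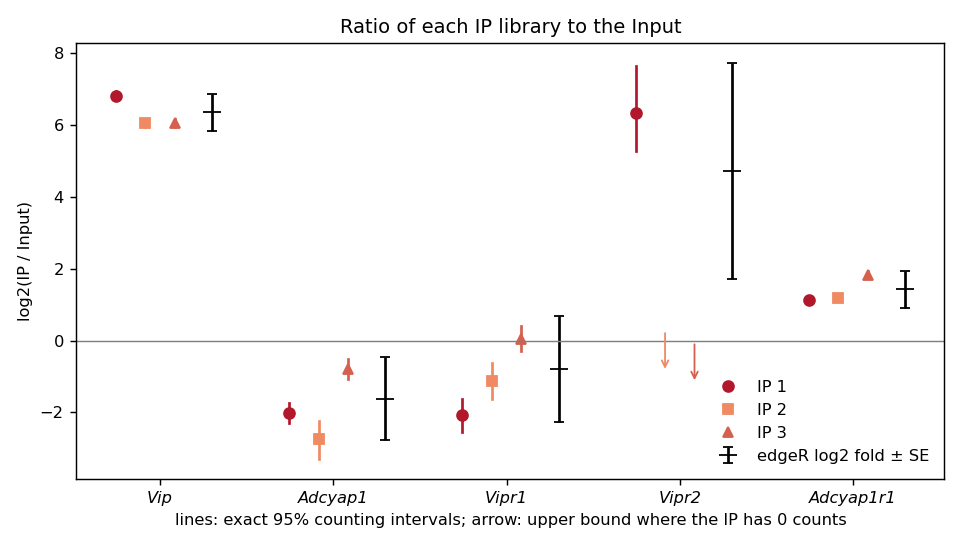
Log2 ratio of each IP library to the Input for the 5 genes, with exact 95% counting intervals as lines, arrows for upper bounds where an IP library has 0 counts, and the edgeR log2 fold with its SE in black. The 3 ratios of Vip lie far above 0, those of Adcyap1 all below 0 and those of Adcyap1r1 all above 0, whereas Vipr2 has its high ratio in IP 1 alone.

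Per kilobase of exon the order of levels differed between the fractions. In IP 1, 2 and 3 Vip was at 1117, 662 and 662 CPM per kb and Adcyap1r1 at 24.6, 25.5 and 39.8 CPM per kb. Adcyap1 was at 1.59, 0.962 and 3.74 CPM per kb and Vipr1 at 0.406, 0.792 and 1.78 CPM per kb, ranges that overlap, although Adcyap1 was the higher in each library. Vipr2 was at 7.6 CPM per kb in IP 1. In the Input Adcyap1r1 (11.1 CPM per kb) and Vip (9.92) were close to each other, followed by Adcyap1 (6.44), Vipr1 (1.72) and Vipr2 (0.094), and there was no replicate to give these an error.

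Among the 3 receptor genes, Adcyap1r1 held most of the summed level per kilobase in every library, at 75.4%, 97% and 95.7% in IP 1, 2 and 3 and 86% in the Input. Vipr1 held 1.25%, 3.01% and 4.29% in the IP libraries, all below its 13.3% in the Input. In IP 3 the share was lower through the level of Adcyap1r1 (39.8 CPM per kb in IP 3, 11.1 in the Input), since Vipr1 itself was at 1.78 CPM per kb in IP 3 and 1.72 in the Input. Vipr2 held 23.3% in IP 1 and 0.726% in the Input. The share of Adcyap1r1 was therefore above the Input in IP 2 and IP 3 and below it in IP 1, the library with Vipr2 counts. Shares of mRNA say nothing of the amount of receptor protein.

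**Figure D3:**
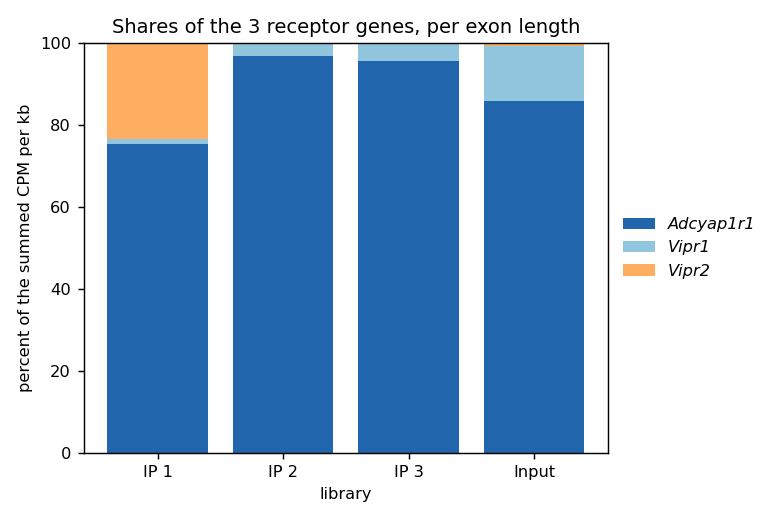
Share of each receptor gene in the summed CPM per kilobase of exon of the 3 receptor genes, in percent, for the 3 IP libraries and the Input. Adcyap1r1 makes up 75.4% to 97% in IP and 86% in the Input, and Vipr2 is visible in IP 1, at 23.3%.

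**Figure D4:**
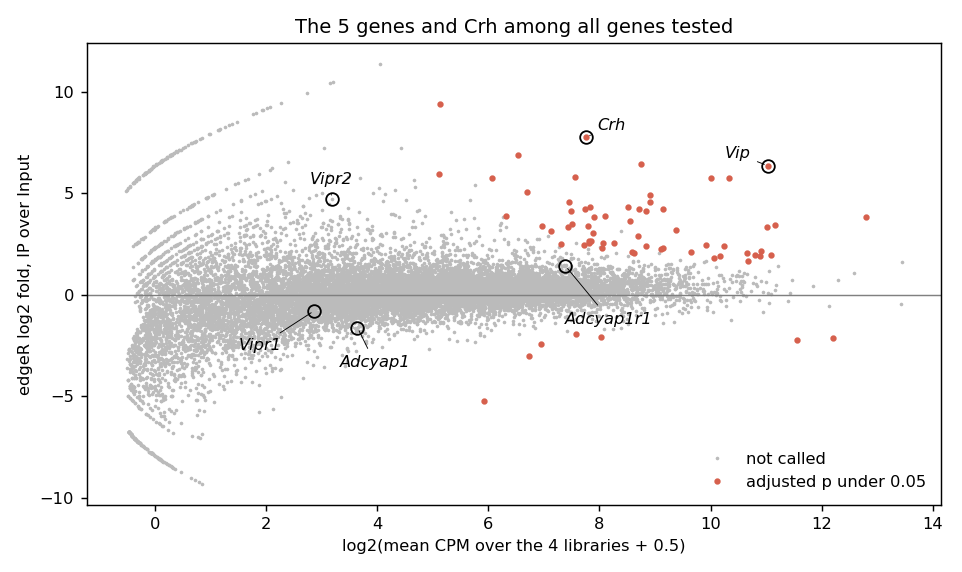
The edgeR log2 fold of IP over Input against the log2 of the mean CPM over the 4 libraries for all 14636 genes tested, with the 5 genes and Crh circled and genes past an adjusted p of 0.05 in red. Vip stands at the upper right, whereas Adcyap1, Vipr1, Vipr2 and Adcyap1r1 lie among genes that were not called.

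Genes whose ratios to the Input were most like those of a member were sought among 10151 genes with a mean of at least 5 CPM. Gene models known only by a number or clone name were left out of these. Likeness was the Euclidean distance over the 3 values of log2 IP over Input, with 0.5 CPM added. For Vip the nearest genes were Tac2, the gene of neurokinin B (distance 0.449), Pou2af1, a coactivator known from B cells (1.2), and Htr3a, a subunit of the serotonin-gated channel (1.23). Tac2 was at 633, 571 and 513 CPM in the IP libraries against 6.65 CPM in the Input. Vip and Htr3a were highest in IP 1, as Crh was, and Pou2af1 was lowest there, at 32.3 CPM against 52.3 and 54 CPM in IP 2 and IP 3. In the Input Pou2af1 was at 0.0599 CPM, the level of a single count, so the added 0.5 CPM largely sets its ratios. Its fitted log2 fold was 9.4, against 6.36 for Vip, and with 0.1 CPM added the gene Irf4 took its place.

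For Adcyap1 the nearest genes were Lrrc55, an auxiliary subunit of BK potassium channels (distance 0.179), Klhl21, an adaptor of a cullin ubiquitin ligase (0.217), and Vamp3, a vesicle SNARE (0.223). Lrrc55 was at 7.06, 4.49 and 17.7 CPM in the IP libraries against 27.5 CPM in the Input, nearly the levels of Adcyap1 itself. For Vipr1 they were Gabra5, a subunit of the GABA-A receptor (0.16), Epb41, a protein of the membrane skeleton (0.213), and Rreb1, a zinc finger transcription factor (0.231). For Adcyap1r1 they were Dock10, an exchange factor for small GTPases (0.0986), Fam204a (0.137) and the intermediate filament gene Synm (0.149).

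For Vipr2 even the nearest genes were farther away, with Rnf125, a ubiquitin ligase, at a distance of 1.15, Tdo2, which encodes tryptophan dioxygenase, at 1.23 and Smco4 at 1.71. These 3 were also high in IP 1, at 23.1, 33.1 and 27.4 CPM, and at most 1.6 CPM in IP 2 and IP 3. Their levels in the Input were 0.48, 1.08 and 0.959 CPM. Likeness over 3 libraries is a description, with no test.

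The remaining steps of the pathway were read from 9 lists with 53 genes, of which 45 were tested. None was called higher and none lower in IP by edgeR, nor under any of the 12 alternatives, DESeq2 and limma-voom included, although DESeq2 gave an adjusted p for 38 of the 45 alone. At an unadjusted p under 0.05 there were 4 of the 45, against 4.43% of all genes tested. The median log2 fold of the 45 was 0.33, and that of all genes tested was 0.08. Of the 45, 17 were above and 5 below the Input in every IP library, against 19.7% and 24.1% of all genes tested.

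Of the 6 other receptors of the secretin family 2 were tested. Glp1r, the receptor of glucagon-like peptide 1, had 85, 37 and 69 counts in IP 1, 2 and 3 against 3 counts in the Input, a pooled ratio of 24.2 (exact 95% counting interval 8.15 to 118) that did not pass (adjusted p = 1 by edgeR). Its levels were 3.7, 3.96 and 5.95 CPM in the IP libraries against 0.18 CPM in the Input, so the IP libraries lay close together and above it. Glp2r, the receptor of glucagon-like peptide 2, was at 0, 0 and 1.72 CPM in the IP libraries against 1.92 CPM in the Input. The 4 other peptide genes of the family (Sct, Gcg, Gip and Ghrh) had at most 4 counts in any library and were not tested.

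The receptor activity-modifying proteins, small membrane partners of such receptors, varied between libraries. Ramp1 was at 13.3, 0.107 and 20.9 CPM in IP 1, 2 and 3 against 17.9 CPM in the Input, so IP 2 nearly lacked it. Ramp2, a known partner of VPAC1, was at 7.58, 11.2 and 5.95 CPM in the IP libraries against 5.4 CPM in the Input. Neither passed (adjusted p = 1 for both by edgeR).

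Downstream of the receptors, Gnas, the gene of the Gs alpha subunit, was at 2928, 2218 and 2293 CPM in the IP libraries against 1786 CPM in the Input (log2 fold 0.47 ± 0.31, SE, adjusted p = 1 by edgeR). Gnal, its close relative Golf, was at 605 ± 119 CPM in IP (SD, n = 3) and 476 CPM in the Input. The adenylyl cyclase genes of highest CPM, whose enzymes make cyclic AMP, were Adcy1 at 837 ± 131 CPM in IP and 794 CPM in the Input, and Adcy2 at 161 ± 33.7 CPM in IP and 110 CPM in the Input. Of 9 cyclases 3 lay above the Input in all IP libraries and 0 below it, against 19.7% and 24.1% of all genes tested.

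Of 11 genes of protein kinase A and of Epac, the exchange factors activated by cyclic AMP, 5 lay above the Input in all IP libraries and 3 below it, beside the same 19.7% and 24.1%. The highest CPM among them had Prkacb, a catalytic subunit, at 578 ± 43.1 CPM in IP and 810 CPM in the Input, and Prkar1b, a regulatory subunit, at 589 ± 54 CPM in IP and 617 CPM in the Input. Log2 folds on this list ran from -0.97 for Rapgef4 to 2.21 for Rapgef3, with a median of 0.24, and none passed. Among 8 CREB factors and coactivators, the acetyltransferase genes Crebbp (419 ± 105 CPM in IP, 393 CPM in the Input) and Ep300 (369 ± 154 CPM in IP, 227 CPM in the Input) had the highest CPM. All these means have an n of 3 in IP, and the errors are SD.

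Neuropeptides are cut from their precursors by prohormone convertases, trimmed by carboxypeptidase E and amidated. Cpe, the gene of that carboxypeptidase, was at 494 ± 72.1 CPM in IP (SD, n = 3) and 475 CPM in the Input, and Pcsk2, a convertase, at 302 ± 19.8 CPM in IP and 312 CPM in the Input. Their log2 folds were 0.05 and -0.05. Of the 6 genes on this list 3 lay above the Input in all IP libraries and 0 below it. The shares of all genes tested were 19.7% and 24.1%, and the median log2 fold of the list was 0.76. Pam and Pcsk1n, also on the list, had log2 folds of 1.29 ± 0.47 and 1.16 ± 0.44 (SE). Neither passed (adjusted p = 0.681 and 0.749 by edgeR). Of the peptidases that break such peptides down, Dpp4 was at 16.9, 2.57 and 1.98 CPM in IP 1, 2 and 3 against 7.07 CPM in the Input, and Mme, or neprilysin, at 7.06, 23.4 and 27.5 CPM against 14.4 CPM.

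Genes used here as markers of the Vip class of interneurons, other than Vip itself, are set beside the pathway for comparison. Whether each of these genes is particular to that class was not tested. Of 10 such genes 7 were called higher in IP and 0 lower by edgeR, against 0.41% and 0.0478% of all genes tested. All 10 lay above the Input in all IP libraries, against 19.7% of all genes tested, and the median log2 fold was 4.39 against 0.08 over all genes tested. The list was put together with results of these data known, and its count is no independent evidence. Crh, among the 7, is also the gene by which the line makes Cre, so its call is no separate result. Those called were Crh, Tac2, Htr3a, Calb2, which encodes calretinin, Igf1, the insulin-like growth factor gene, Adarb2 and Prox1. DESeq2 called the same 7, and limma-voom called 4 of them, without Crh, Htr3a and Calb2. The cholecystokinin gene Cck was at 508 ± 75.8 CPM in IP (SD, n = 3) and 435 CPM in the Input, and Npy2r, a receptor of neuropeptide Y, at 24.8 ± 12.6 CPM in IP and 3.48 CPM in the Input (adjusted p = 0.973 by edgeR). On the CPM scale, which is not corrected for length, Vip had a higher mean in IP than any gene on this list.

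Of 4 markers of other interneuron classes none was called by edgeR. Of the 4, 2 were above the Input in all 3 IP libraries and 1 was below it in all 3 (19.7% and 24.1% of all genes tested). The median log2 fold was -0.02. Sst and Npy, peptide genes of other interneuron classes, were at 678 ± 86.5 and 274 ± 107 CPM in IP (SD, n = 3) and at 332 and 58.3 CPM in the Input. Their log2 folds were 1.03 ± 0.38 and 2.23 ± 0.54 (SE), with an adjusted p of 0.714 and 0.0936 by edgeR, whereas the log2 fold of Vip was 6.36 ± 0.51. DESeq2 called Npy and no other of the 4. Lamp5, a marker of neurogliaform cells, was at 34.2 ± 7.06 CPM in IP and 126 CPM in the Input, with a log2 fold of -1.88 ± 0.62 (SE, adjusted p = 0.48 by edgeR). Pvalb, the gene of parvalbumin, was at 2.22, 21.9 and 4.83 CPM in IP 1, 2 and 3 against 20.3 CPM in the Input (adjusted p = 1 by edgeR), so the groups overlapped.

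**Figure D5:**
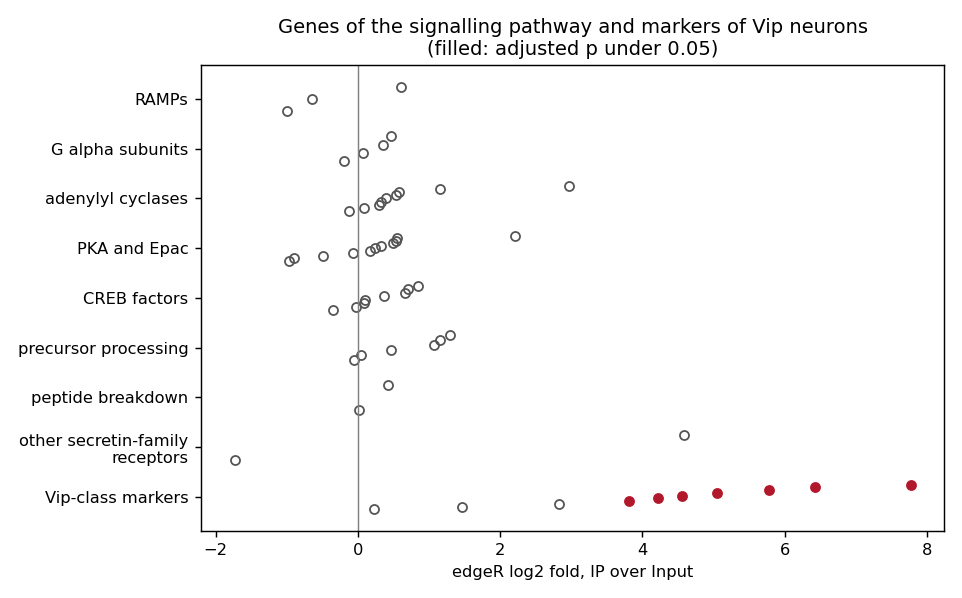
The edgeR log2 fold of IP over Input for the tested genes of 8 pathway lists and for the markers of Vip neurons, 1 point per gene, filled where the adjusted p was under 0.05. None of the 45 pathway genes is filled, and 7 of the 10 markers are.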

How the data were processed

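The authors deposited raw read counts per Entrez gene, 1 library per file, per the file headers. The submitters' processing notes name STAR 2.0.0e, HTSeq and build mm10, whereas the tables' names hold the word subread, so the counter is not settled. Strand, annotation and multiply mapped reads are not given in the sources used here, so overlapping or antisense genes may not be told apart. Of 24100 rows, 9 had no symbol (at most 0.0221% of a library) and stayed in.

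The tests ran in R 4.3.3. After filterByExpr (minimum count 10), IP was set against Input with edgeR 4.0.16 and its two-sided quasi-likelihood test, with TMM scaling and Benjamini-Hochberg adjustment over 14636 genes at 0.05. With 2 residual degrees of freedom and a prior of 17, the 3 IP libraries give the spread, and the lone Input is assumed to vary like them. SE is the log2 fold over the square root of F. The steps were tested on simulated data. Alternatives included DESeq2 1.42.0 and limma-voom (limma 3.58.1). The members and lists were chosen with earlier results of these data known. The genes named are the members, Crh, called members and the 2 most abundant others of each pathway list, and the 3 most alike genes per member. Pam, Pcsk1n, Rapgef3 and Rapgef4 are named besides, for the size of their log2 folds. Of the other lists, given by their summed levels, only some members are named. Coordinates and exon lengths come from GENCODE M21.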

Additional observations from a re-analysis of the deposited data

How the results depend on the processing

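Vip kept its direction and its call under all 12 alternatives (log2 fold 6.04 to 6.49, adjusted p up to 0.00269). The other members were called under no alternative that gave them an adjusted p, and DESeq2 gave none to Vipr1 and Vipr2. Log2 folds were -2.33 to -1.28 for Adcyap1, -1.52 to -0.43 for Vipr1 and 1.16 to 1.53 for Adcyap1r1. Those of Vipr2 (0.54 to 5.31) say nothing of stability, since each fit rests on IP 1 and none could be made without it. Crh was not called by limma-voom (log2 fold 7.73, adjusted p = 0.426). Of all genes, 67 were called (60 higher, 7 lower), but 181 with DESeq2 (167 higher, 14 lower), 108 without a low-count filter (94 and 14) and 39 at an adjusted p under 0.01 (35 and 4). Limma-voom called 37 higher and 14 lower, and 15 were lower with upper-quartile factors and with library totals. Leaving out an IP library gave 90 to 210 calls (82 to 185 higher, 8 to 25 lower), with 210 without IP 1 and 105 without IP 2. The cause of these differences was not tested. Library totals moved the median log2 fold of all genes from 0.08 to -0.19 and upper-quartile factors to -0.13. With 0.1 CPM added in place of 0.5, 2 of the 3 genes most like Vip, Adcyap1 and Vipr2 were the same, and all 3 for Vipr1 and Adcyap1r1. By counting error alone, depth limits how the 0 counts of Vipr2 in IP 2 and IP 3 compare with the Input, not how they compare with IP 1. No paired analysis was possible because the 3 IP libraries are set against a single Input.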
